A study of Homo sapiens with 12 samples.

Results

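The response to BIBR1532, a small-molecule telomerase inhibitor, was compared between LOX-IMVI BR and A375, human metastatic melanoma cell lines. The comparison used 8 of the 12 libraries of the series, 2 in each of 4 groups: LOX-IMVI BR with BIBR1532 at 25 µM, LOX-IMVI BR control, A375 with BIBR1532 at 25 µM and A375 control. The libraries were chosen by their labels. For each gene, the change with BIBR1532 in A375 was subtracted from the change with BIBR1532 in LOX-IMVI BR, and genes that changed alike in both lines were set beside genes whose change differed. Cells of all groups were grown in 6-well plates, and RNA was isolated with TRIzol and made into libraries that do not keep the strand. The meaning of BR, the vehicle of the control and the length of exposure are not given in the sources used here. Labels call the 2 libraries of a group biological replicates.

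BIBR1532 binds TERT, the catalytic subunit of telomerase, the enzyme that adds telomere repeats to chromosome ends. Both lines derive from melanomas with an activating BRAF mutation, which drives the ERK kinase cascade. Several stress pathways leave recognisable transcripts in such cells. NF-kappaB is held in the cytoplasm by inhibitors such as NFKBIA and, once released, drives genes of cytokines, chemokines and its own inhibitors. ATF4 is translated when amino acids are short or the endoplasmic reticulum is stressed, and it drives amino acid synthesis, transport and the transcription factor gene DDIT3. HIF1 drives glycolytic and pH-regulating genes when oxygen is low.

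Library depth ranged from 14817553 to 25822381 counts. Replicates lay close together in both LOX-IMVI BR groups and in treated A375, with a median absolute log2 difference per gene of 0.141 in treated LOX-IMVI BR, 0.106 in its control and 0.159 in treated A375. The A375 control libraries stood apart from each other, at 0.446, and their median chi-square per gene was 10.6, against 0.455 from counting error alone and 0.58 to 1.27 in the other groups. Every A375 change below rests on this pair. The spread used in the tests was pooled over all 12 libraries of the series. These include A375 with 6-thio-dG, the other compound of the series, whose replicates differed most, at 0.533. A fit of the 8 libraries alone called 4139 differences between the lines, against 1059 in the fit of 12. Of the lineage genes, SOX10, a transcription factor of the melanocyte lineage, was at 1412 and 1248 CPM (counts scaled to the TMM-adjusted total of the library) in treated A375 and at 512 and 590 CPM in its control. SOX10 was between 0.502 and 0.749 CPM in all 4 LOX-IMVI BR libraries, and the pigment antigen gene MLANA was under 1 CPM in all 8. AXL, a receptor kinase known from dedifferentiated melanoma, was at 427 CPM or more in every library. So SOX10, present in A375, and MLANA, absent or nearly so from both lines, do not mark LOX-IMVI BR as melanocytic. Both belong to a set of 14 identity markers, 12 of them tested, and were picked from it after their values were seen. Levels of TYR, TYRP1, DCT, S100B, CSPG4, NGFR, EGFR, WNT5A and VIM, of the same set, are not given here. MITF, a lineage gene described below, was present in all LOX-IMVI BR libraries. In the controls it was lower in LOX-IMVI BR than in A375, as SOX10 was. Only with treatment was it above A375. The identity of LOX-IMVI BR is thus not settled by these genes.

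Many more genes rose in both lines than fell in both. A gene is called below where edgeR's quasi-likelihood test gave it an adjusted p (Benjamini-Hochberg) under 0.05, and only called genes are said to have risen or fallen. Of 29114 genes tested, 1046 were called in LOX-IMVI BR (3.59%), 845 higher (2.9%) and 201 lower (0.69%), and 4594 in A375 (15.8%), 2473 higher (8.49%) and 2121 lower (7.29%). In both lines 239 rose (0.821%) and 19 fell (0.0653%), and 69 went opposite ways (0.237%). Among the 14419 genes with a symbol, 546 were called in LOX-IMVI BR (3.79%) and 2771 in A375 (19.2%): 438 rose in LOX-IMVI BR (3.04% of those tested) and 1291 rose in A375 (8.95%). Of the 438, 122 also rose in A375, which is 27.9% of them, against 8.95% of all symbol-named genes. Of the 108 that fell in LOX-IMVI BR (0.749%), 10 also fell in A375, which is 9.26%, against a background of 10.3%. The 122 shared rises made up 9.45% of those in A375 and 0.846% of the genes tested, and the 10 shared falls made up 0.676% of the A375 falls and 0.0694% of the genes tested. Across all symbol-named genes the changes in the lines were nearly unrelated, with Pearson's r of 0.118 and Spearman's rho of 0.023 over 14419 genes, which are not independent replicates.

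The difference between the lines was itself called for 1059 genes (3.64%), 609 positive (2.09%), with the change in LOX-IMVI BR above that in A375, and 450 negative (1.55%). Of these 682 carried a symbol (4.73%), 398 positive (2.76%) and 284 negative (1.97%). In 574 of the 682 the changes had opposite signs. Over all symbol-named genes the signs were the same in 48%, and choosing genes by a large difference itself favours opposite signs. Of the 682, 49 were called in opposite directions in the lines (0.34% of the genes tested). A further 428 were called in A375 only, 150 in LOX-IMVI BR only, 13 in both lines in the same direction and 42 in neither line. Of the 1291 genes that rose in A375, 240 had a negative difference called, and of the 438 that rose in LOX-IMVI BR, 145 had a positive one. An uncalled difference does not show that the lines changed alike. Of the 132 genes called in the same direction in both lines, 119 had no called difference, the 95% interval of the difference lay within 1 of 0 on the log2 scale for 2, and the median half-width of that interval was 1.12.

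These counts moved with the fit. Without any 1 of the LOX-IMVI BR libraries or of the treated A375 libraries, 142 to 209 differences were called. Without A375 control replicate 1 the count was 2268, and without replicate 2 it was 1311. The share of called differences that were positive was 57.5% here and 38.1% with upper-quartile scaling, which lowered the median difference by 0.35 on the log2 scale. It was 39.8% with a filter of 1 CPM in 2 libraries and 38.5% in a fit of symbol-named genes alone, against 58.4% among the symbol-named genes of the fit to all genes. The median difference was 0.26 over the symbol-named genes, so values below are best read against it. Transcript GC content moved with the difference: in the lowest eighth of genes by GC (median 37.7%) the median log2 change was 0.25 in LOX-IMVI BR and −1.19 in A375, and in the highest eighth (64%) it was −0.04 in LOX-IMVI BR and 0.18 in A375. Removing this trend brought the median difference in the lowest eighth from 1.49 to 0.04 and left 2295 differences called, 49.2% of them positive. Of the 61 genes named below or in the closing section whose difference was called, 34 were called under every alternative fit, and none changed sign. Counts by list moved too, in the lines as well as in the difference. Without single libraries, the number of ATF4 genes that rose in LOX-IMVI BR ran from 9 to 25 (18 with all libraries), hypoxia genes that fell in LOX-IMVI BR from 4 to 19 (10), mitosis genes that fell in A375 from 0 to 20 (22) and matrix genes that rose in A375 from 9 to 26 (21). The lowest of these were without a LOX-IMVI BR library for the first pair and without a treated A375 library for the other pair.

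**Figure D1:**
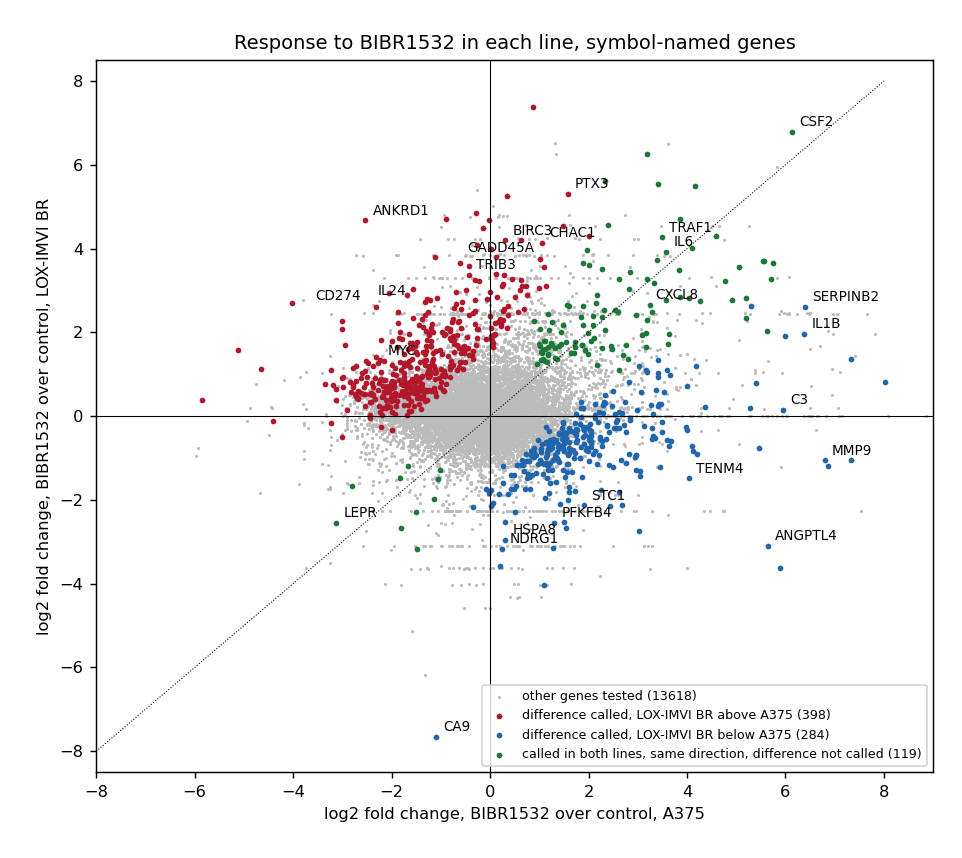
Each point is a symbol-named gene, with the log2 fold change of BIBR1532 over control in A375 on the horizontal axis and in LOX-IMVI BR on the vertical axis; colours mark the called classes, and the dotted line marks equal changes. The 119 genes called alike with no called difference lie mostly in the upper right, and the 398 and 284 differing genes lie to either side of the dotted line.

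Inflammatory genes led the shared rises. CSF2, which encodes the growth factor GM-CSF, was at 29.4 and 14 CPM in treated LOX-IMVI BR and at 0.1 and 0.273 CPM in its control, and at 421 and 379 CPM in treated A375 and 5.91 and 5.52 CPM in its control. IL6, an interleukin gene, was at 555 and 319 CPM in treated LOX-IMVI BR and at 28.7 CPM in both its controls, and at 54.3 and 52.6 CPM in treated A375 against 4.15 and 4.80 CPM in its control. In both genes all treated libraries lay above all controls of their line, as the rule that named them among the shared rises requires. CXCL8, which encodes the neutrophil chemoattractant interleukin 8, was at 3248 and 1786 CPM in treated LOX-IMVI BR against 273 and 249 CPM in its control, and at 303 and 358 CPM in treated A375 against 26.1 and 46.9 CPM in its control. TRAF1, a signalling adaptor of TNF receptors, was at 183 and 92.8 CPM in treated LOX-IMVI BR against 6.93 and 7.42 CPM in its control, and at 491 and 471 CPM in treated A375 against 35.9 and 50.1 CPM in its control. The log2 fold changes in LOX-IMVI BR and A375 were 6.79 ± 0.57 and 6.12 ± 0.48 for CSF2, 3.93 ± 0.34 and 3.58 ± 0.35 for IL6, 3.27 ± 0.47 and 3.18 ± 0.47 for CXCL8 and 4.26 ± 0.39 and 3.49 ± 0.37 for TRAF1 (± SE). All of these changes were called under every alternative fit.

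The differences between the lines in these genes were small against their errors. They were 0.66 ± 0.69 for CSF2 (edgeR adjusted p = 0.628), 0.34 ± 0.45 for IL6 (0.712), 0.09 ± 0.61 for CXCL8 (0.99) and 0.78 ± 0.49 for TRAF1 (0.382). The levels in the control differed between the lines all the same, and so did the treated levels: treated LOX-IMVI BR held more IL6 and CXCL8 than treated A375, and less CSF2. For CXCL8 the removal of the GC trend turned the difference to −1.83, with an edgeR adjusted p of 0.0146, so its likeness between the lines depended on that step. IL1A, interleukin 1 alpha, rose by 3.27 ± 0.40 in LOX-IMVI BR and by 2.63 ± 0.39 in A375, and NLRP3, the sensor of an inflammasome, by 2.81 ± 0.35 in LOX-IMVI BR and 4.04 ± 0.37 in A375. The difference was 0.64 ± 0.52 for IL1A (edgeR adjusted p = 0.521) and −1.22 ± 0.47 for NLRP3 (0.148). The chemokine genes CXCL2 and CXCL3 also rose in both lines, CXCL2 by 3.49 ± 0.45 in LOX-IMVI BR and 3.85 ± 0.48 in A375.

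By list, 16 of 29 secreted inflammatory factors rose in LOX-IMVI BR and 16 in A375, with 8 in both, against 3.04%, 8.95% and 0.846% of all symbol-named genes. In 14 of the 29 the difference between the lines was called, 7 positive and 7 negative, against 2.76% and 1.97% of all symbol-named genes. These became 3 or 4 positive and 4 negative without any 1 LOX-IMVI BR library or treated A375 library. Of 12 chemokines, 3 rose in both lines (CXCL2, CXCL3 and CXCL8), and CXCL11 and CX3CL1 were called in A375 alone with no called difference. Median log2 changes of the 12 were 0.63 in LOX-IMVI BR and 3.09 in A375. Their median difference was −1.35, with 3 of 12 above 0. No chemokine had a called difference here, but 3 were negative at an unadjusted p under 0.05, and 3 were called negative with the GC trend removed. Of 18 NF-kappaB subunits and feedback genes, 9 rose in LOX-IMVI BR, 11 in A375 and 7 in both, and their median log2 changes were 1.31 in LOX-IMVI BR and 1.3 in A375, against 0.09 and −0.15 over all symbol-named genes. NFKBIA, the inhibitor of NF-kappaB, rose by 1.66 ± 0.32 in LOX-IMVI BR and 2.46 ± 0.33 in A375, and the subunit gene NFKB2 by 1.77 ± 0.34 in LOX-IMVI BR and 1.73 ± 0.34 in A375. Without 1 of 3 LOX-IMVI BR libraries the LOX-IMVI BR calls of NFKBIA and NFKB2 were lost. TNFAIP3, a deubiquitinase that ends NF-kappaB signalling, was 1 of 2 members with a called difference, with a larger rise in LOX-IMVI BR (3.07 ± 0.34) than in A375 (1.00 ± 0.32), a difference of 2.07 ± 0.45 (edgeR adjusted p = 0.0243) that was called under 14 of 20 alternatives. The A375 rise of TNFAIP3 was called under 9 of them. The other member was BIRC3, an inhibitor of apoptosis, with a difference of 3.89 ± 0.91 (edgeR adjusted p = 0.0335) called under 9 of 20 alternatives and lost without any 1 of the 8 libraries. Of the 18, 2 were called in both lines without either LOX-IMVI BR control or treated LOX-IMVI BR replicate 1, 4 without either treated A375 library, 5 without treated LOX-IMVI BR replicate 2, and 8 and 9 without A375 control replicates 1 and 2.

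The start regions of IL6 and CXCL2 are shown because both genes rose in both lines and hold the letters of an NF-kappaB site, GGG, then 5 bases of any kind, then CC, on either strand. Each runs from 250 bases before the start to 50 after it, from RefSeq on GRCh38.p14, with the matches in capitals, IL6 at chr7:22726950-22727249 on the plus strand and CXCL2 at chr4:74099146-74099445 on the minus strand.
IL6: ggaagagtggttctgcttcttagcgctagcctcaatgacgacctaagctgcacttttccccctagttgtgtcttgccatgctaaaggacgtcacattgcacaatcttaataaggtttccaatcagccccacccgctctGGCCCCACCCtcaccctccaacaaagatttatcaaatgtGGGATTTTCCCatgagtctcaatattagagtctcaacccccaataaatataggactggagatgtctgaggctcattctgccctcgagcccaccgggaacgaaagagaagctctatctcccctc
CXCL2: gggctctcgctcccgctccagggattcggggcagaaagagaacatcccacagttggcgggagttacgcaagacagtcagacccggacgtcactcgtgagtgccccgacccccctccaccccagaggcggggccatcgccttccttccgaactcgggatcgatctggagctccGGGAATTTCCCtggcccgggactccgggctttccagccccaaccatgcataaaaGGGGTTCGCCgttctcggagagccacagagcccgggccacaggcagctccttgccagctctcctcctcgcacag
Each holds 3 matches, overlapping ones included. The letters are common: 58.0% of all 27305 promoters of the same length held them, 72.4% of those of tested genes, 69.1% of those of genes called higher in both lines and 16 of 16 of those found for the NF-kappaB list. The share among the shared rises was not above that among tested genes.

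**Figure D2:**
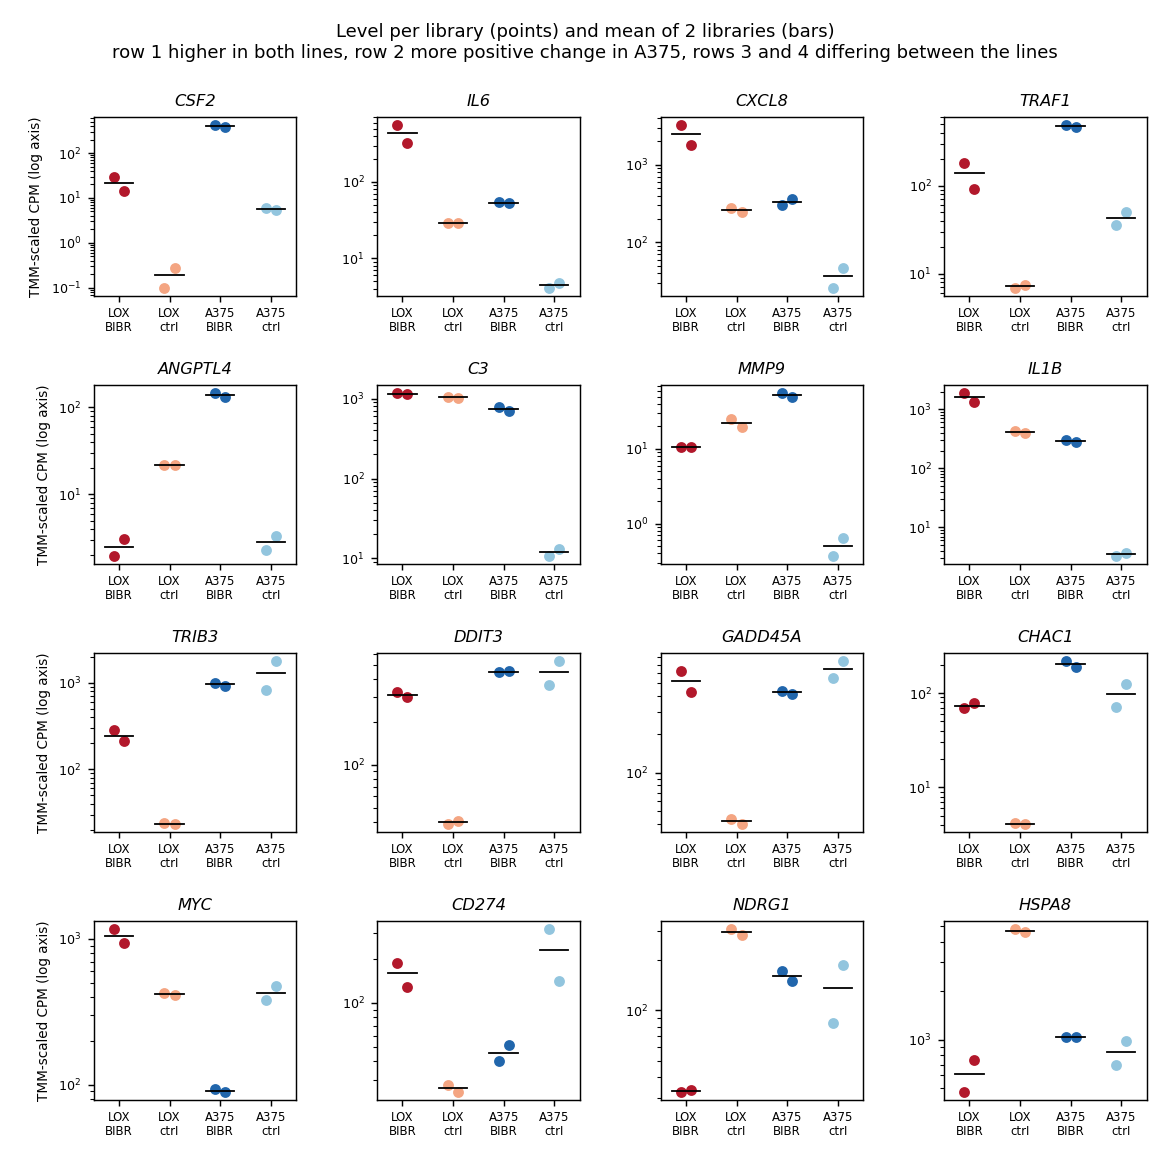
Level of 16 genes in each library, as TMM-scaled CPM on a log axis that differs between panels, with treated LOX-IMVI BR, LOX-IMVI BR control, treated A375 and A375 control in that order; points are libraries and bars are means of 2. CSF2, IL6, CXCL8 and TRAF1 are higher with BIBR1532 in both lines, and MYC is higher with BIBR1532 in LOX-IMVI BR (1166 and 938 CPM against 424 and 410) and lower in A375 (92.5 and 89.3 CPM against 379 and 472).

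Other shared rises lay outside inflammation. KRT15, a basal keratin gene, was at 67.8 and 70.8 CPM in treated LOX-IMVI BR against 8.03 and 8.97 CPM in its control, and at 91.4 and 91.7 CPM in treated A375 against 8.67 and 17.3 CPM in its control. The immediate early genes FOS and EGR2 rose in both lines, as did the laminin chain gene LAMB3, by 2.48 ± 0.37 in LOX-IMVI BR and 3.29 ± 0.38 in A375. EGR1, an immediate early transcription factor gene, rose by 4.57 ± 0.49 in LOX-IMVI BR and 2.40 ± 0.45 in A375, with an uncalled difference of 2.17 ± 0.61 (edgeR adjusted p = 0.061). The shared falls named by the rule were 5. LEPR, the leptin receptor, was at 2.67 and 2.15 CPM in treated LOX-IMVI BR against 13.5 and 14.6 CPM in its control, and at 0.762 and 0.97 CPM in treated A375 against 4.97 and 10.4 CPM in its control. TMEM45A, SYT7 (a synaptotagmin), GABRA3 (a GABA receptor subunit) and MANF, a secreted protein of the endoplasmic reticulum, fell by 1.02 to 1.82 on the log2 scale in each line. Without single libraries each of these 5 lost its call in at least 1 line.

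Many genes of ATF4 and amino acid stress rose in LOX-IMVI BR. Of the 39 tested members of this list, 18 rose and 0 fell in LOX-IMVI BR, whereas 2 rose and 6 fell in A375 (background in A375, 8.95% higher and 10.3% lower). The difference was called positive in 14 and negative in 0 (29 and 2 at an unadjusted p under 0.05), against 2.76% and 1.97% of all symbol-named genes, and its median was 1.45. TRIB3, a pseudokinase that feeds back on ATF4, was at 280 and 209 CPM in treated LOX-IMVI BR against 23.7 and 23.5 CPM in its control, and at 1002 and 908 CPM in treated A375 against 815 and 1770 CPM in its control. The treated and control libraries were fully apart in LOX-IMVI BR and overlapped in A375, where all levels were higher. DDIT3, which encodes the stress transcription factor CHOP, was at 323 and 296 CPM in treated LOX-IMVI BR against 38.7 and 40.2 CPM in its control, and at 444 and 454 CPM in treated A375 against 361 and 531 CPM in its control. The difference between the lines was 3.81 ± 0.51 for TRIB3 (edgeR adjusted p = 0.00127) and 2.96 ± 0.40 for DDIT3 (0.00127).

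STC2, a secreted glycoprotein gene, and SESN2, a leucine-sensing regulator of mTORC1, behaved likewise. STC2 rose by 2.57 ± 0.28 in LOX-IMVI BR and had an uncalled change of −0.73 ± 0.27 in A375, and SESN2 rose by 3.11 ± 0.33 in LOX-IMVI BR and had an uncalled change of 0.24 ± 0.30 in A375. CHAC1, a glutathione-degrading enzyme, was at 68.7 and 78.5 CPM in treated LOX-IMVI BR against 4.17 and 4.14 CPM in its control, and at 217 and 189 CPM in treated A375 against 70.7 and 124 CPM in its control. CHAC1 rose in both lines, by 4.14 ± 0.38 in LOX-IMVI BR and 1.06 ± 0.33 in A375, and the difference of 3.09 ± 0.48 was called (edgeR adjusted p = 0.00396). Its A375 call held under 11 of 20 alternatives, and was lost without any 1 of 7 of the 8 libraries. Of the list's called differences, 6 to 23 were left without single libraries: 6 without treated A375 replicate 2, without either LOX-IMVI BR control or without treated LOX-IMVI BR replicate 1, 7 without treated A375 replicate 1, 9 without treated LOX-IMVI BR replicate 2, 14 without A375 control replicate 2 and 23 without replicate 1. With the GC trend removed 25 were positive and 2 negative.

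The start regions of CHAC1 and ASNS, asparagine synthetase, are shown because both belong to the ATF4 list with a called difference and hold the letters TGATGNAA of an ATF4 composite site on either strand. The ASNS difference was 1.92 ± 0.46 (edgeR adjusted p = 0.0359), called under 12 of 20 alternatives. The sequences are from RefSeq on GRCh38.p14, CHAC1 at chr15:40953221-40953520 on the plus strand and ASNS at chr7:97872359-97872658 on the minus strand, with the match in capitals.
CHAC1: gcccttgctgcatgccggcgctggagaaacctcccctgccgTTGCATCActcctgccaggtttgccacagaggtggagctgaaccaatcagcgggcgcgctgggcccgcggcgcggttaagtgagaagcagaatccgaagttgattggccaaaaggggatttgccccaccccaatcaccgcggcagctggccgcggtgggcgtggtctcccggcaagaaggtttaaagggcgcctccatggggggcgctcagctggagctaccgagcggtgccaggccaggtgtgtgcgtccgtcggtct
ASNS: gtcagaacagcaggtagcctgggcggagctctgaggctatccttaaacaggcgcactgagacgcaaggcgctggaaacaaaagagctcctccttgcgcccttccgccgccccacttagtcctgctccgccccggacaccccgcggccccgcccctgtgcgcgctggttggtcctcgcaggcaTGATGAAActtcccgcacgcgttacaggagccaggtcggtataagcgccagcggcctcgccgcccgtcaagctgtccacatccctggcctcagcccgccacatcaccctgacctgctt
The letters stood in 8 of 34 ATF4-list promoters (23.5%), against 3.67% of all promoters of the same length and 1.89% of those of tested genes. Among genes that rose in LOX-IMVI BR with a called difference the share was 6.96% (8 of 115), and among those that rose in A375 with a called difference it was 2.27% (4 of 176). Genes that rose in both lines held the letters in 6.19% (6 of 97), near the share in LOX-IMVI BR. A match describes the letters and is not evidence of binding.

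Further genes rose in LOX-IMVI BR with a called difference. GADD45A, a stress gene that p53 and ATF4 both drive, was at 622 and 430 CPM in treated LOX-IMVI BR against 43.5 and 40.1 CPM in its control, and at 438 and 413 CPM in treated A375 against 551 and 745 CPM in its control (difference 4.26 ± 0.42, edgeR adjusted p = 0.000145). GDF15, a stress cytokine of the TGF-beta family, was at 340 and 273 CPM in treated LOX-IMVI BR against 44.3 and 43.0 CPM in its control, and at 540 and 491 CPM in treated A375 against 687 and 1506 CPM in its control (difference 3.90 ± 0.51, edgeR adjusted p = 0.0012). In both genes the LOX-IMVI BR control stood well below the other groups. EFNA1, an ephrin ligand gene, rose by 5.26 ± 0.54 in LOX-IMVI BR and had an uncalled change of 0.34 ± 0.40 in A375. SLC12A7, a potassium chloride cotransporter gene, was at 3.56 and 3.18 CPM in treated LOX-IMVI BR against 0.201 and 0.091 CPM in its control, and had an uncalled change of −0.15 ± 0.33 in A375. CSGALNACT1, a chondroitin sulfate enzyme gene, had 79 counts in treated LOX-IMVI BR and 3 counts in its control, a ratio of 30.7 with a 95% counting interval of 10.1 to 152.

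**Figure D3:**
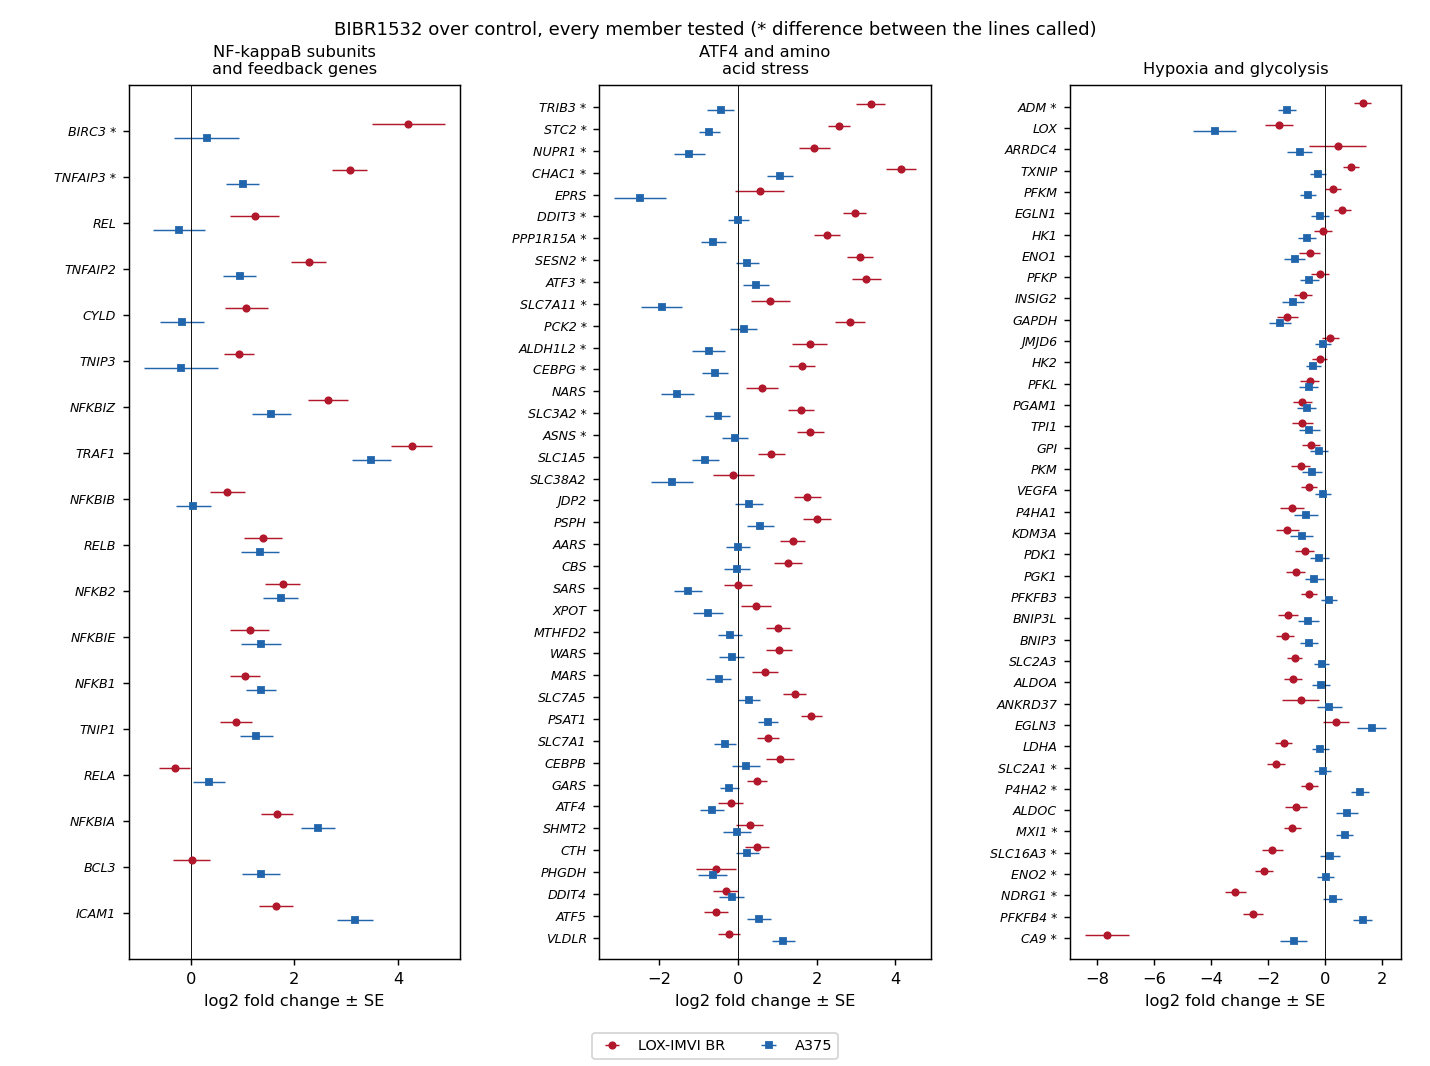
Log2 fold change of BIBR1532 over control, with its SE, for every tested member of 3 gene lists in LOX-IMVI BR (circles) and A375 (squares), ordered by the difference; stars mark called differences. Most NF-kappaB members lie to the right in both lines (17 of 18 in LOX-IMVI BR and 15 of 18 in A375). Most ATF4 members lie to the right in LOX-IMVI BR (32 of 39) and fewer do in A375 (14 of 39), with a called difference in 14 of 39. Of 40 hypoxia and glycolysis members 8 have a called difference below 0.

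Hypoxia and glycolysis genes held more called falls in LOX-IMVI BR than in A375 with all libraries. Of 40 tested, 10 fell and 1 rose in LOX-IMVI BR, where 0.749% of symbol-named genes fell and 3.04% rose. In A375 3 fell and 3 rose, where 10.3% of symbol-named genes fell and 8.95% rose. Without A375 control replicate 1 the falls were 19 in LOX-IMVI BR and 15 in A375, 9 of them in both lines, and without any 1 LOX-IMVI BR library they were 4 in LOX-IMVI BR and 3 in A375. The difference was called negative in 8 and positive in 1, against 1.97% and 2.76% of all symbol-named genes. The median changes were −0.83 in LOX-IMVI BR and −0.32 in A375. NDRG1, a hypoxia-induced gene, was at 32.6 and 33.4 CPM in treated LOX-IMVI BR against 307 and 284 CPM in its control, and at 172 and 151 CPM in treated A375 against 84.3 and 187 CPM in its control. PFKFB4, a glycolytic regulator, was at 4.11 and 6.55 CPM in treated LOX-IMVI BR against 32.4 and 30.1 CPM in its control, and at 198 and 183 CPM in treated A375 against 66.2 and 87.8 CPM in its control. The A375 libraries overlapped for NDRG1 and did not for PFKFB4, which was called in opposite directions in the lines. The difference was −3.41 ± 0.50 for NDRG1 (edgeR adjusted p = 0.00241) and −3.85 ± 0.49 for PFKFB4 (0.000923).

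CA9, carbonic anhydrase 9, which regulates pH under hypoxia, had 3 counts in treated LOX-IMVI BR and 769 in its control, a ratio of 0.00454 with a 95% counting interval of 0.000935 to 0.0133. In A375 CA9 was at 11.8 and 8.92 CPM with treatment and at 14 and 31.1 CPM in the control. Its fitted difference of −6.54 ± 0.94 (edgeR adjusted p = 0.00223) depends on the prior count, and was −10.46 without treated LOX-IMVI BR replicate 1. ADM, adrenomedullin, is also hypoxia-induced and was the exception, with a rise of 1.31 ± 0.30 in LOX-IMVI BR and a fall of 1.34 ± 0.31 in A375. The ADM rise was called under 12 of 20 alternatives, and the fall and the difference under 18. The list's 8 called differences became 3 without any 1 of the LOX-IMVI BR libraries or treated A375 libraries, 10 without A375 control replicate 1 and 14 without replicate 2.

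Of 25 heat shock chaperones 4 fell in LOX-IMVI BR, and 3 rose and 6 fell in A375. Over all symbol-named genes 0.749% fell in LOX-IMVI BR, and 8.95% rose and 10.3% fell in A375. The difference was called negative in 1.97% of them. HSPA8, the constitutive cytosolic HSP70, was at 476 and 745 CPM in treated LOX-IMVI BR against 4803 and 4622 CPM in its control, and at 1034 and 1037 CPM in treated A375 against 692 and 985 CPM in its control. The difference was −3.25 ± 0.41 (edgeR adjusted p = 0.000895). Its level in the LOX-IMVI BR control was the one far from the other groups. The inducible HSP70 genes HSPA1A and HSPA1B changed in opposite directions. In LOX-IMVI BR HSPA1A fell by 1.84 ± 0.33 and HSPA1B fell by 1.69 ± 0.32, and both rose in A375, by 1.20 ± 0.33 for HSPA1A and 1.60 ± 0.32 for HSPA1B. These are near-identical copies that share reads, so their separate levels are uncertain. The 3 called differences of the list, all negative, stayed 3 negative without any 1 library, apart from A375 control replicate 2, without which they were 6, and without A375 control replicate 1 a positive one was called besides. The 6 falls in A375 became 0 without either treated A375 library and 1 without A375 control replicate 2, and the 4 in LOX-IMVI BR became 1 and 2 without LOX-IMVI BR control replicates 1 and 2 and 1 without treated replicate 1.

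Among the genes that rose far more in A375 were secreted and lipid-related ones. ANGPTL4, a secreted inhibitor of lipoprotein lipase, was at 1.99 and 3.04 CPM in treated LOX-IMVI BR against 21.9 and 21.5 CPM in its control, and at 145 and 131 CPM in treated A375 against 2.28 and 3.35 CPM in its control. Its difference of −8.74 ± 0.54 (edgeR adjusted p = 2.03e-06) had the smallest adjusted p of the genes named here, and each line's change was called in its own direction. MMP9, a gelatinase, was at 10.8 and 10.7 CPM in treated LOX-IMVI BR against 25.1 and 19.4 CPM in its control, and at 55.7 and 49.8 CPM in treated A375 against 0.374 and 0.634 CPM in its control. C3, complement component 3, was at 1171 and 1129 CPM in treated LOX-IMVI BR against 1053 and 1022 CPM in its control, and at 781 and 697 CPM in treated A375 against 10.8 and 13.1 CPM in its control. C3 thus reached in treated A375 a level nearer that of LOX-IMVI BR, where it was high in both groups. The difference was −7.85 ± 0.55 for MMP9 (edgeR adjusted p = 6.91e-06) and −5.80 ± 0.47 for C3 (2.92e-05).

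The same held for inflammatory genes that rose in both lines by unequal amounts. IL1B, interleukin 1 beta, was at 1876 and 1348 CPM in treated LOX-IMVI BR against 422 and 403 CPM in its control, and at 301 and 278 CPM in treated A375 against 3.33 and 3.62 CPM in its control. SERPINB2, a plasminogen activator inhibitor, was at 500 and 408 CPM in treated LOX-IMVI BR against 75.9 and 72.4 CPM in its control, and at 47.8 and 50.7 CPM in treated A375 against 0.486 and 0.724 CPM in its control. Both started far lower in the A375 control and ended lower in treated A375, although the log2 change was larger there: the difference was −4.42 ± 0.41 for IL1B (edgeR adjusted p = 0.000102) and −3.79 ± 0.44 for SERPINB2 (0.000483). PTX3, a soluble pattern receptor named here after its values were seen, was the reverse, at 1640 and 814 CPM in treated LOX-IMVI BR against 31.9 and 30.2 CPM in its control, and at 196 and 191 CPM in treated A375 against 58.1 and 71.7 CPM in its control, with a difference of 3.73 ± 0.49 (edgeR adjusted p = 0.0012). TNFRSF9, a costimulatory receptor of the TNF family, rose by 2.64 ± 0.38 in LOX-IMVI BR and 5.30 ± 0.44 in A375, a difference called under 14 of 20 alternatives.

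Some of the largest fitted differences came from genes near 0 in LOX-IMVI BR. BRINP2, LCE1F and ACPP had 0, 1 and 3 counts in treated LOX-IMVI BR and 3, 3 and 6 counts in its control, so their LOX-IMVI BR changes could not be measured at this depth. In A375 BRINP2 was at 61.8 and 54.8 CPM with treatment and 0.785 and 1.27 CPM in the control, a rise of 5.89 ± 0.49. LCE1F, a late cornified envelope gene, was at 55.0 and 46.3 CPM with treatment and 0.411 and 0.453 CPM in the A375 control. KCNH1, a potassium channel gene, was the opposite case: it was at 3.95 and 4.70 CPM in treated A375 against 114 and 103 CPM in its control, and had 4 counts in treated LOX-IMVI BR and 2 in its control. For these genes the size of the difference depends on the prior count, and each lost its call under at least 1 alternative.

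Matrix genes rose mostly in A375 by count. Of 59 tested, 21 rose and 5 fell in A375, against 4 and 3 in LOX-IMVI BR, and the difference was called negative in 9 and positive in 1. Of all symbol-named genes 8.95% rose and 10.3% fell in A375, and 3.04% rose and 0.749% fell in LOX-IMVI BR. The difference was called negative in 1.97% of them and positive in 2.76%. TIMP1, an inhibitor of metalloproteases, was at 136 and 133 CPM in treated LOX-IMVI BR against 177 and 174 CPM in its control, and at 3373 and 3197 CPM in treated A375 against 558 and 415 CPM in its control. THBS2, thrombospondin 2, fell by 1.14 ± 0.30 in LOX-IMVI BR and rose by 2.18 ± 0.31 in A375. The difference was −3.14 ± 0.44 for TIMP1 (edgeR adjusted p = 0.00171) and −3.31 ± 0.43 for THBS2 (0.000996). FN1, fibronectin, was at 311 and 351 CPM in treated LOX-IMVI BR against 305 and 308 CPM in its control, and at 367 and 348 CPM in treated A375 against 79.5 and 36.2 CPM in its control. The FN1 difference of −2.51 ± 0.54 (edgeR adjusted p = 0.0214) was called under 14 of 20 alternatives. The 9 called differences of the list became 2 without any 1 LOX-IMVI BR library or treated A375 replicate 1, 4 without treated A375 replicate 2, 14 without A375 control replicate 1 and 12 without replicate 2. LAMB3 and the collagen gene COL4A6 rose in both lines, the LOX-IMVI BR rise of COL4A6 being called under 15 of 20 alternatives.

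Interferon-stimulated genes gave smaller numbers: of 38, 10 rose and 2 fell in A375, and 1 rose in LOX-IMVI BR (IRF1, which also rose in A375). The shares over all symbol-named genes were 8.95% and 10.3% in A375 and 3.04% in LOX-IMVI BR, and 1.97% had a negative difference called. The difference was called for OAS2, TRIM22 and IRF7, all negative, and 0 calls were left without any 1 LOX-IMVI BR library or treated A375 library, 1 without A375 control replicate 1 and 5 without replicate 2. OAS2, an antiviral sensor of double-stranded RNA, was at 15.6 and 11.4 CPM in treated LOX-IMVI BR against 13.0 and 13.1 CPM in its control, and at 17.5 and 20.8 CPM in treated A375 against 3.55 and 2.99 CPM in its control.

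In 49 symbol-named genes the lines were called in opposite directions, 22 higher and 27 lower in LOX-IMVI BR. MYC, the growth-promoting transcription factor gene, was at 1166 and 938 CPM in treated LOX-IMVI BR against 424 and 410 CPM in its control, and at 92.5 and 89.3 CPM in treated A375 against 379 and 472 CPM in its control. The lines had like control levels of MYC and were fully apart with treatment (its LOX-IMVI BR rise was called under 14 of 20 alternatives), with a difference of 3.56 ± 0.41 (edgeR adjusted p = 0.000483). CD274, which encodes the immune checkpoint ligand PD-L1, was at 188 and 129 CPM in treated LOX-IMVI BR against 27.6 and 24.9 CPM in its control, and at 40.1 and 51.9 CPM in treated A375 against 317 and 141 CPM in its control. Here the control of A375 was above that of LOX-IMVI BR, and the order of the lines was turned with treatment, with a difference of 4.91 ± 0.56 (edgeR adjusted p = 0.000483). IL24, a cytokine of the interleukin 10 family, was at 75.4 and 45.7 CPM in treated LOX-IMVI BR against 8.59 and 9.83 CPM in its control, and at 977 and 935 CPM in treated A375 against 1731 and 3072 CPM in its control.

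FST, the activin inhibitor follistatin, rose by 1.31 ± 0.30 in LOX-IMVI BR and fell by 2.53 ± 0.28 in A375, and SNAPC1, a subunit of a small nuclear RNA transcription complex, rose by 2.09 ± 0.52 in LOX-IMVI BR and fell by 3.02 ± 0.54 in A375. The LOX-IMVI BR rise of FST was called under 12 of 20 alternatives and that of SNAPC1 under 8, and the SNAPC1 rise lost its call without any 1 of the 8 libraries. ANKRD1, a target of the YAP pathway, was at 3.70 and 3.93 CPM in treated LOX-IMVI BR against 0.201 and 0.091 CPM in its control, and at 26.1 and 31.9 CPM in treated A375 against 165 and 171 CPM in its control. Its difference of 7.21 ± 0.67 (edgeR adjusted p = 0.000102) was the most positive of the named genes. In the other direction STC1, a secreted glycoprotein gene, was at 57.6 and 53.6 CPM in treated LOX-IMVI BR against 245 and 242 CPM in its control, and at 65.0 and 90.6 CPM in treated A375 against 28.3 and 12.9 CPM in its control. STC1 and STC2 thus differed in opposite ways, −4.04 ± 0.56 for STC1 and 3.31 ± 0.39 for STC2. TENM4, a teneurin of neurons, fell by 1.49 ± 0.30 in LOX-IMVI BR and rose by 4.04 ± 0.35 in A375, COL17A1, a hemidesmosome collagen gene, fell by 1.44 ± 0.31 in LOX-IMVI BR and rose by 3.05 ± 0.32 in A375, and PPFIA4, a liprin gene, fell by 3.15 ± 0.38 in LOX-IMVI BR and rose by 1.27 ± 0.35 in A375.

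Of 31 ERK pathway output genes 12 rose and 0 fell in LOX-IMVI BR, 4 rose and 2 fell in A375, and 4 rose in both lines. The background of rises was 3.04% in LOX-IMVI BR, 8.95% in A375 and 0.846% in both, and that of falls in A375 was 10.3%. Without either LOX-IMVI BR control 4 rose in LOX-IMVI BR and 3 in A375, without treated LOX-IMVI BR replicate 1, 5 and 3, and with upper-quartile scaling 8 and 6. Against 2.76% and 1.97% of all symbol-named genes, the difference was called positive in 6 and negative in 0 (13 and 0 at an unadjusted p under 0.05). Besides MYC these included DUSP5, a phosphatase that switches off ERK, at 67.8 and 61.1 CPM in treated LOX-IMVI BR against 11.4 and 10.3 CPM in its control, and at 335 and 304 CPM in treated A375 against 179 and 220 CPM in its control. The DUSP5 difference of 1.89 ± 0.43 (edgeR adjusted p = 0.0289) was called under 12 of 20 alternatives. The list's 6 calls became 1 with upper-quartile scaling and without any 1 LOX-IMVI BR library or treated A375 library, and were 9 without A375 control replicate 1 and 7 without replicate 2. The YAP-related genes CYR61 and AJUBA rose in LOX-IMVI BR by 1.88 ± 0.29 and 1.49 ± 0.33, with uncalled changes of −0.27 ± 0.28 and −0.98 ± 0.33 in A375. Both differences were called under 15 of 20 alternatives.

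Melanocyte genes had called differences in both directions. MITF, the master regulator of the lineage, was at 19.0 and 21.0 CPM in treated LOX-IMVI BR against 7.23 and 7.83 CPM in its control, and at 6.46 and 9.65 CPM in treated A375 against 45.6 and 34.5 CPM in its control. It fell by 2.32 ± 0.50 in A375, its change of 1.41 ± 0.49 in LOX-IMVI BR was not called, and the difference of 3.72 ± 0.70 (edgeR adjusted p = 0.0113) was called under 15 of 20 alternatives and lost without 5 of the 8 libraries in turn. PMEL, a melanosome protein gene, was at 5.70 and 4.12 CPM in treated A375 against 0.374 and 0.453 CPM in its control, and under 0.4 CPM in all LOX-IMVI BR libraries. Of 23 melanocyte genes the difference was called positive in 3 and negative in 2, against 2.76% and 1.97% of all symbol-named genes. At most 1 of these calls was left without any 1 LOX-IMVI BR library or treated A375 library, and 7 were made without either A375 control library.

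Mitosis genes fell in A375. Of 50 tested, 22 fell in A375, where 10.3% of symbol-named genes fell, and 0 were called in LOX-IMVI BR by edgeR, where 10 were higher and 0 lower at an unadjusted p under 0.05, DESeq2 called 3 higher and limma-voom 44 higher. The median log2 change was 0.66 in LOX-IMVI BR and −0.92 in A375, and the difference was called positive in 11 and negative in 0 (34 and 0 unadjusted). Over all symbol-named genes it was called positive in 2.76% and negative in 1.97%. KIF18A, a kinesin of chromosome alignment, was at 73.6 and 75.2 CPM in treated LOX-IMVI BR against 38.7 and 40.9 CPM in its control, and at 0.897 and 1.07 CPM in treated A375 against 4.26 and 12 CPM in its control. ECT2, which drives the contractile ring, was at 188 and 186 CPM in treated LOX-IMVI BR against 120 and 119 CPM in its control, and at 3.63 and 5.09 CPM in treated A375 against 26.3 and 50.6 CPM in its control. The difference was 3.91 ± 0.69 for KIF18A (edgeR adjusted p = 0.00835, called under 16 of 20 alternatives) and 3.78 ± 0.75 for ECT2 (0.0158, called under 12 of 20).

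The mitosis calls rested on few libraries. Without either treated A375 library or either LOX-IMVI BR control 0 of 50 differences were called, without either treated LOX-IMVI BR library or A375 control replicate 2 there was 1, and without A375 control replicate 1 there were 19. The median difference of the list lay between 0.90 and 1.96 under every alternative. The list's median GC content was 42.2%, and with the GC trend removed its median difference was 0.92, against 1.66 before, with 18 of 48 called, and its A375 median was −0.44, against −0.92 before, with 16 falls and 2 rises. The 22 falls in A375 became 3 without A375 control replicate 2, and 1 and 0 without treated A375 replicates 1 and 2. Genes of DNA repair, at a median GC content of 43.4%, fell in 9 of 44 in A375 and in 0 in LOX-IMVI BR by edgeR and DESeq2 (0 also unadjusted, and 1 by limma-voom), and the difference was called positive for BRCA2, WRN and RBBP8. Of all symbol-named genes 10.3% fell in A375, and the difference was called positive in 2.76%. With the GC trend removed the A375 median of the repair list was −0.35, against −1.01 before, and its median difference was 0.52, against 1.09 before. The 9 falls became 0 without either treated A375 library, 1 without A375 control replicate 2, 4 without replicate 1, 5 without any 1 LOX-IMVI BR library and 1 with the filter of 1 CPM. Each of these 3 lost its call without any 1 of the 8 libraries. In bulk RNA, fewer dividing cells and less RNA per cell cannot be told apart.

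Ribosomal protein genes had median log2 changes of −0.64 in LOX-IMVI BR and −1.02 in A375, where the median was −1.47 without A375 control replicate 1 and −0.21 without replicate 2. By edgeR 19 of 48 fell in A375 and 0 in LOX-IMVI BR, where 18 were lower at an unadjusted p under 0.05, DESeq2 called 1 lower and limma-voom 39. Of all symbol-named genes 10.3% fell in A375 and 0.749% in LOX-IMVI BR, so 0 of 48 in LOX-IMVI BR is near the background. The 19 falls became 35 without A375 control replicate 1, 6 without replicate 2, and 0 and 1 without treated A375 replicates 1 and 2, and the LOX-IMVI BR falls were 18 and 17 without A375 control replicates 1 and 2. By edgeR 0 differences were called (3 positive and 1 negative unadjusted, 0 by DESeq2 and 4 by limma-voom). Without A375 control replicate 1, 16 of these differences were called positive and their median was 0.87, and without replicate 2, 2 were called negative and their median was −0.35. Of 45 ribosome biogenesis genes and MYC targets 20 fell in A375 (1 without either treated A375 library and 8 without A375 control replicate 2), and the difference was called for MYC alone, with 16 calls without A375 control replicate 1. In the list of endoplasmic reticulum chaperones 2 of 23 fell in LOX-IMVI BR and 9 in A375 (0 without either treated A375 library), with medians of −0.53 in LOX-IMVI BR and −0.64 in A375.

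**Figure D4:**
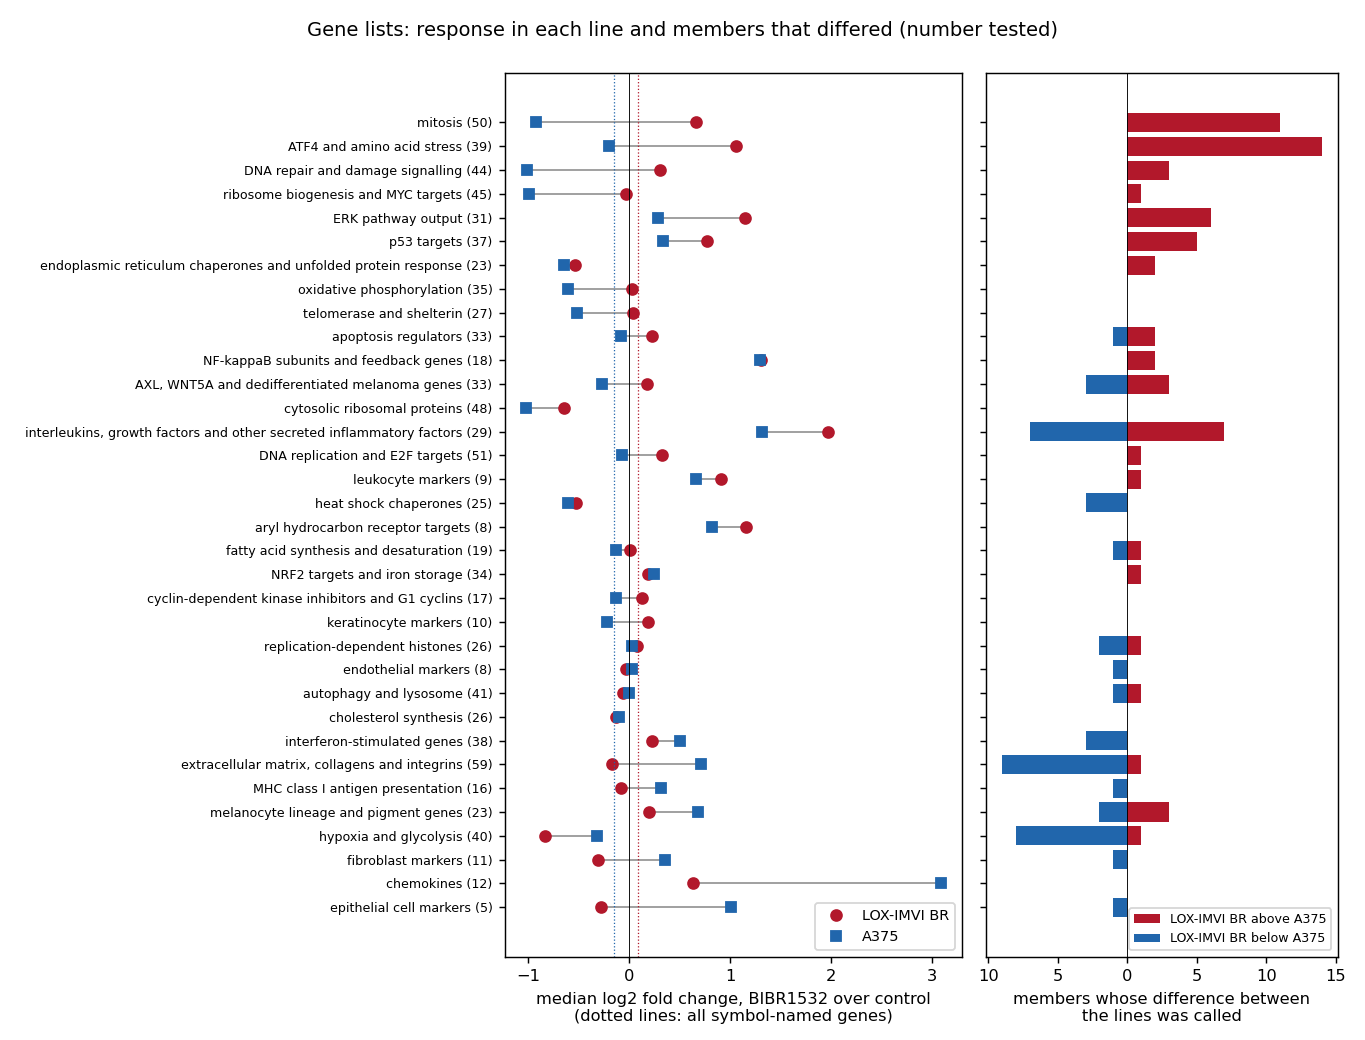
Left, median log2 fold change of BIBR1532 over control in LOX-IMVI BR (circles) and A375 (squares) for each gene list of at least 5 tested genes, with dotted lines at the medians of all symbol-named genes (0.09 and −0.15); right, number of members whose difference was called positive or negative. Mitosis and ATF4 genes have the most positive calls (11 and 14), and matrix and hypoxia genes the most negative ones (9 and 8).

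TERT was at 13.9 and 14.2 CPM in treated LOX-IMVI BR against 9.29 and 12 CPM in its control, and at 5.65 and 5.72 CPM in treated A375 against 9.46 and 3.89 CPM in its control. Its difference was 0.67 ± 0.61 (edgeR adjusted p = 0.572), and it turned to −0.15 without A375 control replicate 1. Of 27 telomerase and shelterin genes 6 fell in A375 and 0 were called in LOX-IMVI BR by edgeR or DESeq2 (2 unadjusted, 4 by limma-voom). Among all symbol-named genes 10.3% fell in A375 and 3.79% were called in LOX-IMVI BR, so 0 of 27 there is near the background. Differences at an unadjusted p under 0.05 were 8 positive and 1 negative, and DESeq2 called 2 and limma-voom 8, all positive. With edgeR no difference was called with all libraries, and other edgeR fits called 4 without A375 control replicate 1, 5 with no filter, 5 with 8 libraries and 3 with the GC trend removed. The 6 falls became 0 without either treated A375 library, 1 without any 1 LOX-IMVI BR library and 3 without A375 control replicate 2. Telomerase activity, on which the compound acts, was not measured in these libraries.

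Of 37 p53 targets 8 rose in LOX-IMVI BR, and 5 rose and 3 fell in A375. Of all symbol-named genes 3.04% rose in LOX-IMVI BR, and 8.95% rose and 10.3% fell in A375. In the main edgeR fit 0 rose in both lines (2 by DESeq2 and 6 by limma-voom). Other edgeR fits gave 0 with upper-quartile scaling, 4 with no filter, 8 with the GC trend removed and 9 with the replicate block besides. The difference was called positive in 5, against 2.76% of all symbol-named genes. With the GC trend removed it was called positive in 9 and negative in 3. CDKN1A, the cell cycle inhibitor p21, was at 95.4 and 111 CPM in treated LOX-IMVI BR against 54.6 and 51.3 CPM in its control, and at 652 and 592 CPM in treated A375 against 179 and 350 CPM in its control. Its difference of −0.27 ± 0.47 was not called (edgeR adjusted p = 0.798), nor was that of MDM2, the p53 ubiquitin ligase (0.81 ± 0.62, adjusted p = 0.49). The 5 with a called difference were GADD45A, SESN2, PLK2, PMAIP1 and BTG2 (the last 3 called under 14, 13 and 14 of 20 alternatives), of which GADD45A and SESN2 are also stress genes of the ATF4 response. The list's 5 calls became 2 without any 1 LOX-IMVI BR library or treated A375 library, 9 without A375 control replicate 1, and 4 without replicate 2. AXL had a difference of 1.36 ± 0.38 that was not called (edgeR adjusted p = 0.0587).

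Aryl hydrocarbon receptor targets showed the limit of depth. CYP1A1, the classic target of this ligand-activated receptor, was at 144 and 133 CPM in treated A375 against 3.36 and 5.07 CPM in its control, and at 0.274 and 0.562 CPM in treated LOX-IMVI BR against 0.201 and 0.0455 CPM in its control. Its difference of −3.25 ± 0.95 was not called (edgeR adjusted p = 0.0704), and the LOX-IMVI BR levels were too near 0 to show a change. CYP1B1 was at 18.5 and 19.7 CPM in treated LOX-IMVI BR against 9.54 and 10.01 CPM in its control, and at 9.28 and 13.2 CPM in treated A375 against 2.51 and 1.63 CPM in its control, with a rise of 2.40 ± 0.46 in A375 and an uncalled difference of −1.44 ± 0.61 (edgeR adjusted p = 0.185). Of the 8 targets tested 3 rose in A375 and 1 in LOX-IMVI BR, against 8.95% and 3.04% of all symbol-named genes. At an unadjusted p under 0.05, 4 were higher in each line, and limma-voom called 6 higher in LOX-IMVI BR and 3 in A375. The change was above 0 for 8 in LOX-IMVI BR and 7 in A375, with medians of 1.16 and 0.82. These counts do not set the lines apart for the list.

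Cholesterol synthesis (26 genes) and oxidative phosphorylation (35 genes) had 0 called differences by edgeR, with 2 and 4 at an unadjusted p under 0.05, 1 and 1 by DESeq2 and 3 and 3 by limma-voom. Without A375 control replicate 1, 11 differences in oxidative phosphorylation were called positive, and its falls in A375 were 22, against 3 with all libraries. Markers of other cell types moved in a few cases. Leukocyte markers summed to 222 and 235 CPM in treated LOX-IMVI BR against 94.7 and 95.2 CPM in its control, and to 667 and 610 CPM in treated A375 against 190 and 447 CPM in its control, and 2 of the 9 tested (LCP1, an actin bundler, and ITGAM) rose in both lines. The defining leukocyte gene PTPRC was between 0.0374 and 0.274 CPM in all 8 libraries. Fibroblast markers summed to 1640 and 1719 CPM in treated LOX-IMVI BR against 1978 and 1942 CPM in its control, and to 76.3 and 76.8 CPM in treated A375 against 32.2 and 35.5 CPM in its control. Leukocyte markers rose in 3 of 9 in each line, fibroblast markers in 0 of 11 in LOX-IMVI BR and 3 of 11 in A375. Epithelial markers rose in 0 of 5 in LOX-IMVI BR and 2 of 5 in A375, with a median difference of −2.9. The background of rises was 3.04% in LOX-IMVI BR and 8.95% in A375. Of the 43 tested markers of other cell types (fibroblast, leukocyte, endothelial, epithelial and keratinocyte), the difference was called positive in 1 and negative in 3. Over all symbol-named genes these shares were 2.76% and 1.97%. Whether leukocyte, fibroblast or epithelial markers bear on the results was not tested.

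**Figure D5:**
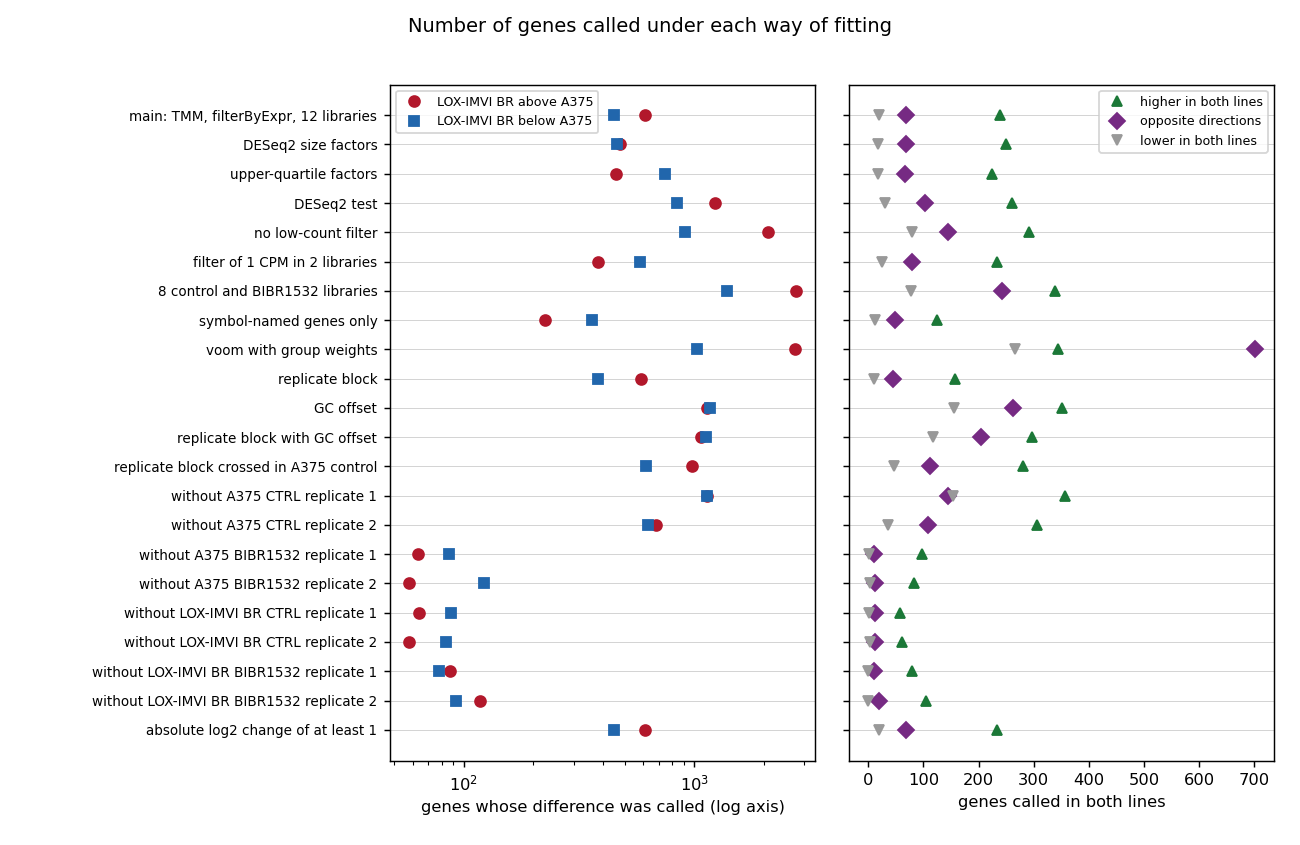
Number of genes called under each way of fitting. Left, genes whose difference between the lines was called positive or negative (log axis); right, genes called higher in both lines, in opposite directions or lower in both. Genes higher in both lines outnumber those lower in both under every fit shown (239 against 19 here), and the counts of called differences drop to between 142 and 209 without any 1 of 6 libraries.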

How the data were processed

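RNA from 2 melanoma lines was sequenced in 12 libraries, of which the 8 of control and BIBR1532 are described. The authors deposited a table of raw counts per gene, with names that are gene symbols or NONCODE identifiers. Per the submitters' processing notes, STAR, Picard, GATK and featureCounts 1.5.1 and the builds hg19 and GRCh37 were used, and their roles are not given in the sources used here. Rows with date-like names that could stand for more than 1 gene (4 of 75253, holding up to 0.000913% of any library) were not used.

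Counts were scaled by TMM and filtered with filterByExpr, which left 29114 genes. One model of group means was fitted to all 12 libraries, which share the estimate of spread, with edgeR 4.0.16 (limma 3.58.1, R 4.3.3), and each contrast was tested by the quasi-likelihood F test with 6 residual degrees of freedom and Benjamini-Hochberg adjustment over all genes tested. The steps were tested on simulated data. Depth was 14817553 to 25822381 counts, the common coefficient of biological variation was 25.8%, and intervals for low counts are exact, at 95%, and cover counting error only. With 2 libraries a group the p-values rest on the spread between libraries of a group, pooled over all 12, those with 6-thio-dG included.

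Alternatives were other scaling (DESeq2 size factors, upper quartile), DESeq2 1.42.0 and limma-voom as the test, no filter or 1 CPM in 2 libraries, 8 libraries or symbol-named genes alone, a replicate block, a correction for transcript GC content (GENCODE, 14050 genes matched by symbol), and leaving out each library. The members and lists were chosen with earlier results of these data known. Named genes are a selection of those with the largest called differences, the largest shared or opposite changes at 5 CPM or more with groups not overlapping, up to 4 members of each list with a called difference and 3 called in both lines, and a few followed throughout. PTX3, ASNS, BTG2, SOX10, MLANA, PTPRC, CXCL11 and CX3CL1 were named outside this rule after their values were seen. Promoter sequences are RefSeq's on GRCh38.p14 and were matched by symbol to genes counted on another build.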

Additional observations from a re-analysis of the deposited data

Results flagged for a closer look

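The change with BIBR1532 differed between the lines by the test of the difference itself in 609 genes with a more positive change in LOX-IMVI BR and in 450 with a more positive change in A375. The lines were also called in opposite directions in 49 symbol-named genes, of which the 5 with the largest difference each way, at 5 CPM or more with groups not overlapping, are given. The difference, LOX-IMVI BR minus A375, was 5.11 for SNAPC1, 4.91 for CD274, 4.04 for IL24, 3.91 for PLS1 (the actin bundler plastin 1) and 3.84 for FST on the log2 scale. It was −8.74 for ANGPTL4, −5.52 for TENM4, −4.49 for COL17A1, −4.42 for PPFIA4 and −4.04 for STC1. By that choice the treated libraries of all 10 lay on opposite sides of the control libraries in the lines, which is no separate support. The call in 1 line was often lost. Of 20 alternatives, the LOX-IMVI BR change was called under 8 for SNAPC1, 12 for FST, 15 for PLS1, 16 for TENM4, COL17A1 and STC1 and 19 for CD274. The A375 change was called under 6 for PLS1, 15 for PPFIA4, 17 for IL24, 18 for SNAPC1 and 19 for STC1. The difference was called under all 20 in each of these genes apart from PLS1, with 16. No group held enough libraries for a test of single libraries.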

How the results depend on the processing

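The counts of called differences (609 positive, 450 negative), of genes called higher in both lines (239), lower in both (19) and in opposite directions (69) depended on the fit. Positive differences were 1235 with the DESeq2 test, 2094 with no filter, 382 with the filter of 1 CPM, 2752 with 8 libraries, 226 with symbol-named genes alone, 2734 with limma-voom and 1130 with the GC correction. Negative differences were 747 with upper-quartile scaling, 841 with the DESeq2 test, 908 with no filter, 1387 with 8 libraries, 1029 with limma-voom and 1165 with the GC correction. Genes higher in both lines were 124 with symbol-named genes alone. Genes lower in both were 30 with the DESeq2 test, 80 with no filter, 78 with 8 libraries, 267 with limma-voom and 155 with the GC correction, and genes in opposite directions were 144 with no filter, 242 with 8 libraries, 701 with limma-voom and 263 with the GC correction. Without single libraries positive differences ranged from 58 to 1136, negative from 78 to 1132, shared rises from 57 to 356, shared falls from 0 to 154 and opposite calls from 11 to 145, where a lone library was taken to vary like the other groups. Fewer libraries or genes enter some of these fits, and the cause of the other shifts was not tested.

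The labels do not say that a replicate number marks a shared culture or day. Deviations of BIBR1532 and control libraries with the same number correlated at 0.035 in LOX-IMVI BR and −0.205 in A375, and those of A375 with BIBR1532 and with 6-thio-dG, the other compound of the series, at 0.492. With the replicate block 586 differences were positive and 382 negative, 158 genes were higher and 10 lower in both lines, and 44 were opposite. With the replicate block and the GC correction positive differences were 1070, negative 1129, shared falls 117 and opposite calls 205. The crossed pairing of the A375 control, chosen after seeing the data, gave 976 positive differences, 47 shared falls and 112 opposite calls.

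The sign of an uncalled difference turned in 6 genes. For IL6 it was −0.01 with upper-quartile scaling, −0.08 with the GC correction, −0.11 with the GC correction and block and −0.11 to 0.68 without single libraries. For CXCL8 it was −0.27 with upper-quartile scaling, −0.04 with no filter, −0.09 with symbol-named genes alone, −0.10 with limma-voom, −0.04 with the block, −1.83 with the GC correction, −1.87 with both and −0.41 to 0.44 without single libraries. For IL1A it was −0.62 with the GC correction and −0.66 with the block too, and for MDM2 −0.04 and −0.06. Without single libraries TERT ranged from −0.15 to 1.13 and CDKN1A from −0.84 to 0.12, each turning sign without A375 control replicate 1. Depth limits the genes near 0 in 1 line, whose difference depends on the prior count, and with 2 libraries a group 1 library can decide a call.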
